A study of Rattus norvegicus with 3 samples.

Results

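The partners of dystrophin in its membrane complex were followed through single-nucleus RNA sequencing of the rat heart. They were chosen by name and not by level. All 8 listed genes were found among the 22250 genes of the files: Dag1 (ENSRNOG00000019400), Sgca (ENSRNOG00000003998), Sgcb (ENSRNOG00000002135), Sgcd (ENSRNOG00000002372), Sspn (ENSRNOG00000001807), Sntb1 (ENSRNOG00000004821), Dtna (ENSRNOG00000016671) and Dtnb (ENSRNOG00000011914). Nuclei came from the heart apex at 12 months of age, with 1 library each of wild-type rats (WT), of BMD rats and of DMD rats. BMD rats carry an in-frame deletion within Dmd, made by CRISPR/Cas9 in Sprague Dawley oocytes, and model Becker muscular dystrophy. DMD rats carry another deletion within the same gene and model Duchenne muscular dystrophy. Both deletions are in the germline, so every cell type carries them. The sources used here do not say how many animals were behind each library. With 1 library per genotype there was no replicate and no test between genotypes, and all intervals given are 95% intervals that cover counting error only.

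Dystrophin ties the actin cytoskeleton of a muscle fibre to a group of proteins in the plasma membrane. Dystroglycan, the product of Dag1, spans the membrane and binds laminin outside the cell and dystrophin inside it. The sarcoglycans (Sgca, Sgcb and Sgcd among them) and sarcospan (Sspn) form a subcomplex in the membrane beside it, and the syntrophins (Sntb1) and dystrobrevins (Dtna, Dtnb) bind dystrophin on the cytoplasmic side and anchor signalling proteins. Loss of a sarcoglycan causes limb-girdle muscular dystrophy, often with cardiomyopathy, and without dystrophin the complex is depleted from the muscle membrane as protein. The counts described here are of RNA in nuclei and do not measure these proteins.

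RefSeq promoters on GRCr8, from 250 bases before to 50 bases after a gene start, were held for 6 of the 8 genes, all except Dag1 and Sntb1. The 3 shown belong to genes found in different cell types in the results. Sgca was found in cardiomyocyte-like nuclei and Sgcb in cardiomyocyte-like and fibroblast-like nuclei. Dtnb was found mainly in endocardial-like, fibroblast-like and macrophage-like nuclei. Capitals mark CANNTG, the E-box letters read by basic helix-loop-helix factors, which read the same on both strands. The windows lie at chr10:80416026-80416325 on the minus strand (Sgca), chr14:34917413-34917712 on the plus strand (Sgcb) and chr6:32286232-32286531 on the plus strand (Dtnb).
Sgca: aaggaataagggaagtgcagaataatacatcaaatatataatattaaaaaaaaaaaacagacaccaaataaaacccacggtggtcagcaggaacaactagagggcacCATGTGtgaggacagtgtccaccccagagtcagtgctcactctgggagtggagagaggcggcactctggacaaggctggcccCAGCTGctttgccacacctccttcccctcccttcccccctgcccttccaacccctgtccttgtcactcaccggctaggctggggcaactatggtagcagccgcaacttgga
Sgcb: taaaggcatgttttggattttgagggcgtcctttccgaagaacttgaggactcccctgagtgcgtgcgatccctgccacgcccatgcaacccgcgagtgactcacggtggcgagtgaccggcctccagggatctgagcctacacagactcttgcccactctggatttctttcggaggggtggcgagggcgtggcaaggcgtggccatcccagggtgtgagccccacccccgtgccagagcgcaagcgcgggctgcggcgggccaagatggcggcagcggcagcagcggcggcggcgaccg
Dtnb: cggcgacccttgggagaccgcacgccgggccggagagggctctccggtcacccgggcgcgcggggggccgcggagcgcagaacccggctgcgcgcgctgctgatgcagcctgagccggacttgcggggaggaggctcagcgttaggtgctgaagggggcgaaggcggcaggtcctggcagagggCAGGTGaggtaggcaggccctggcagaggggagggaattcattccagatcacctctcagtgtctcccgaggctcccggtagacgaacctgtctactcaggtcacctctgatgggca
CANNTG stood 2 times in the Sgca window, 0 times in that of Sgcb and 1 time in that of Dtnb. Of the other 3 promoters, that of Sgcd held 1, that of Sspn 2 and that of Dtna 3. Of all 33469 promoters in the table, 72.1% held the letters at least once, with a median of 1. GC content was 52.3% for Sgca, 66.0% for Sgcb and 69.3% for Dtnb, against a median of 51.7% over all promoters. The files hold UMIs per gene, without positions, and do not show which start site was used.

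The total of unique molecular identifiers (UMIs) was 21609238 in the WT library, 21142346 in BMD and 19215994 in DMD. Median depth per nucleus was 1213 UMIs (WT), 1487 (BMD) and 1229 (DMD). The 24664 nuclei were clustered with the 8 genes left out, and 11 classes were named from marker genes and are called "-like" for that reason. Cardiomyocyte-like nuclei made up 2073 of the WT, 1612 of the BMD and 1289 of the DMD nuclei. Of the 11 listed cardiomyocyte markers found in the files, 11 were raised at least 2 times in their large cluster and 8 in their small one. Fibroblast-like nuclei numbered 3518, 1639 and 2271 in the same order, and 583, 232 and 441 nuclei stayed unnamed. Levels are UMIs of a gene summed over the nuclei of a class, per 1000000 UMIs of that class (CPM). They are compared between classes and libraries for 1 gene at a time and not between genes, since gene length was not taken into account. RNA set free by broken nuclei enters every droplet, so the level it alone would give a class was estimated from barcodes with at most 50 UMIs and is given where it matters. The share of a class taken as free RNA was the median level of other lineages' markers in it, relative to those barcodes. RNA from doublets (barcodes with more than 1 nucleus) can also enter that share.

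The 8 genes did not share a cell type. Sgca, Sgcb, Sgcd, Sspn and Dtna had their highest level in cardiomyocyte-like nuclei in all 3 libraries, while Dag1 was highest in Schwann cell-like nuclei and Dtnb in endocardial-like nuclei in all 3. The lead over the second class exceeded counting error in each library for Sgcd, Dtna and Dtnb, in BMD and DMD for Sgca, in DMD for Sspn, in WT for Dag1 and in no library for Sgcb. Sntb1 had no fixed order, with T or B cell-like nuclei highest in WT, monocyte or neutrophil-like nuclei in BMD and cardiomyocyte-like nuclei in DMD. Its lead over the second class exceeded counting error in DMD only, and the lead in BMD rested on 60 UMIs. The count of 5 genes fell to 3 when free RNA was subtracted, because Sgcb and Sspn in WT were then highest in the 23 monocyte or neutrophil-like nuclei, on 4 and 6 UMIs.

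**Figure D1:**
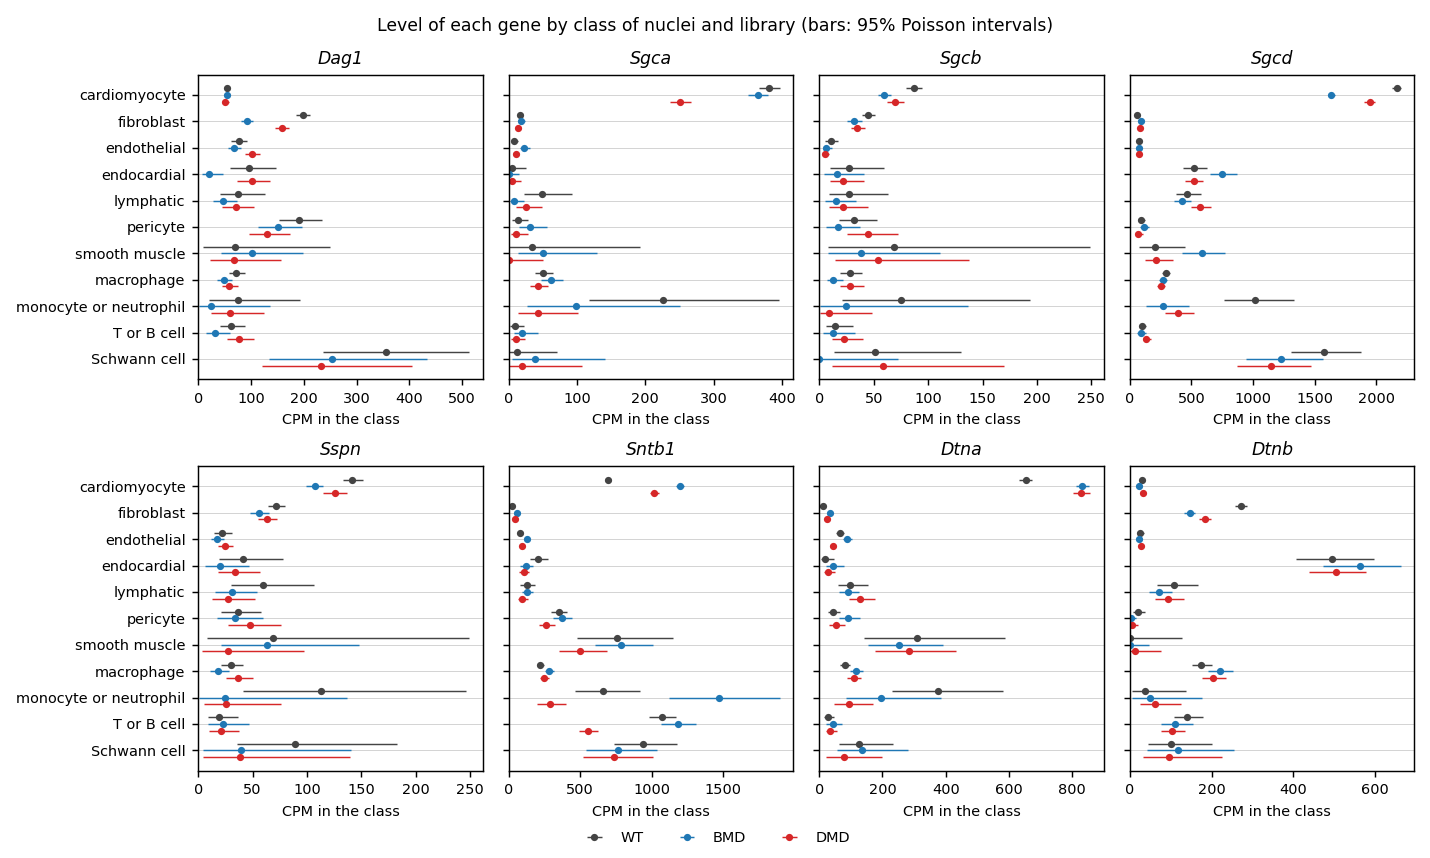
Level of each gene (CPM, x axis, from 0, with its own scale per gene) in each named class (y axis) and library (WT grey, BMD blue, DMD red), with 95% exact Poisson intervals that cover counting error only. Sgca, Sgcd and Dtna stand out in cardiomyocyte-like nuclei, Dag1 is low there (54.4 CPM in WT) against fibroblast-like nuclei (198 CPM), and Dtnb reaches 495 CPM in WT endocardial-like nuclei.

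Dag1, which encodes both subunits of dystroglycan, had UMIs in every named class. Its lowest value was in cardiomyocyte-like nuclei in WT and DMD, within counting error of the next class. Those nuclei still stood above the free RNA level, with 54.4 CPM against 3.52 in WT and 51.2 against 10.6 in DMD. T or B cell-like nuclei in WT (61.4 CPM against 45.9) and macrophage-like nuclei in DMD (58.3 against 56.9) did not. Dag1 measured 355 CPM in WT against 253 in BMD and 232 in DMD in Schwann cell-like nuclei, on 28, 13 and 12 UMIs. In fibroblast-like nuclei it measured 198 CPM in WT against 91.9 in BMD and 158 in DMD. In pericyte-like nuclei, which wrap capillaries, it measured 190.0 CPM in WT against 151 in BMD and 131 in DMD. Cardiomyocyte-like nuclei stayed below these classes in every library, with 54.4 CPM in WT against 53.7 in BMD and 51.2 in DMD. They held 18.7%, 37.5% and 15.9% of all Dag1 UMIs in WT, BMD and DMD nuclei, and fibroblast-like nuclei held 51.6%, 27.4% and 41.5%. Such shares, here and for the genes below, depend on how many of all UMIs a class held. Cardiomyocyte-like nuclei held 6412560, 6797128 and 4103485 of the 17160871, 14971887 and 13766688 UMIs in nuclei. Fibroblast-like nuclei held 4841442, 2905191 and 3463488. In endocardial-like nuclei Dag1 measured 96.2 CPM in WT against 20.1 in BMD and 101 in DMD, on 21, 5 and 42 UMIs. The BMD value there did not stand above what free RNA alone would give. In WT and DMD the Schwann cell-like, fibroblast-like and pericyte-like levels led the order, and in DMD none of these neighbours differed beyond counting error.

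Sgca, α-sarcoglycan, a part of the sarcoglycan core of striated muscle, was near the free RNA level in most classes other than cardiomyocyte-like nuclei, which held 80.4%, 86.8% and 77.4% of its UMIs in WT, BMD and DMD. It measured 382 CPM in WT against 365 in BMD and 251 in DMD there. Endothelial-like nuclei measured 7.40, 22.5 and 10.0 CPM, and the free RNA level was 13.6, 22.9 and 15.2 CPM. Outside cardiomyocyte-like nuclei its interval lay above the free RNA level in only 2 class and library pairs, WT fibroblast-like nuclei with 17.1 CPM and WT monocyte or neutrophil-like nuclei with 12 UMIs.

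Sgcd, δ-sarcoglycan, was highest in cardiomyocyte-like nuclei and had a second place in Schwann cell-like nuclei in all 3 libraries. In the former it measured 2166 CPM in WT against 1636 in BMD and 1946 in DMD. Schwann cell-like nuclei, the glia of the nerves, measured 1572, 1228 and 1142 CPM on 124, 63 and 59 UMIs, where free RNA would give 205, 107 and 97.1 CPM. The cardiomyocyte-like level was above the Schwann cell-like level beyond counting error in each library. Endocardial-like nuclei, which line the chambers, measured 522, 751 and 517 CPM and lymphatic-like nuclei 465, 423 and 573 CPM. The other endothelial-like nuclei measured 73.2, 77.8 and 72.0 CPM, where free RNA would give 76.9, 60.9 and 49.9 CPM. Their interval lay above that level in BMD and DMD but not in WT. Sgcd differed between the kinds of lining cells within every library.

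For Sgcb, β-sarcoglycan, cardiomyocyte-like nuclei measured 87.2 CPM in WT against 59.4 in BMD and 69.7 in DMD, and fibroblast-like nuclei 44.8, 31.7 and 34.9 CPM. For Sspn, sarcospan, cardiomyocyte-like nuclei measured 142 CPM in WT against 107 in BMD and 126 in DMD, and fibroblast-like nuclei 71.5, 56.1 and 63.2 CPM. The fibroblast-like levels of both genes stood above the free RNA level in every library. Cardiomyocyte-like nuclei held 57.4%, 69.1% and 50.7% of Sgcb UMIs and 58.2%, 68.8% and 52.0% of Sspn UMIs in WT, BMD and DMD, a smaller share than for Sgca in each library. Over the 33 points of 11 classes in 3 libraries, the log2 levels of Sgcb and Sspn had a Pearson correlation of 0.73, given as a description of points that share libraries and free RNA.

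Sntb1, β1-syntrophin, which binds dystrophin and brings signalling proteins to the membrane, was broadly found. Cardiomyocyte-like nuclei measured 694 CPM in WT against 1197 in BMD and 1018 in DMD. T or B cell-like nuclei measured 1071, 1179.7 and 557 CPM, and within that class the UMIs came from the Skap1-led cluster, which measured 1143, 1347 and 617 CPM, while the Ighm-led cluster had 0, 5 and 12 UMIs of Sntb1. Schwann cell-like nuclei measured 938, 760.1 and 735 CPM and smooth muscle-like nuclei 758, 784 and 498 CPM. Pericyte-like nuclei measured 348, 373 and 262 CPM. The lowest class in all 3 libraries was the fibroblast-like one, with 25.6, 56.8 and 42.2 CPM where free RNA would give 18.0, 37.1 and 20.3 CPM.

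The dystrobrevins differed from each other. For Dtna, α-dystrobrevin, cardiomyocyte-like nuclei measured 654 CPM in WT against 833 in BMD and 830.0 in DMD and held 80.8%, 85.8% and 78.4% of its UMIs, and smooth muscle-like nuclei measured 310.2, 253 and 283 CPM. For Dtnb, β-dystrobrevin, cardiomyocyte-like nuclei measured 30.3 CPM in WT against 21.2 in BMD and 32.7 in DMD. Endocardial-like nuclei measured 495 CPM in WT against 562 in BMD and 505 in DMD of Dtnb, far above the free RNA level of 8.59, 8.76 and 13.3 CPM. Fibroblast-like nuclei measured 272, 146 and 184 CPM and macrophage-like nuclei 175, 220.2 and 204 CPM, so that fibroblast-like nuclei came second in WT and macrophage-like nuclei in BMD and DMD. Endothelial-like nuclei, close kin of the endocardial ones, measured 24.4, 21.9 and 26.0 CPM. The difference between endocardial-like nuclei and the next class exceeded counting error in each library. Over the same 33 points the correlation of Dtna and Dtnb was -0.53, given as a description.

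The deletions remove a small part of Dmd (ENSRNOG00000046366), while its UMIs were counted over the whole gene. Cardiomyocyte-like nuclei measured 16380.2 CPM in WT against 20297 in BMD and 18572 in DMD of Dmd, which gave no check of the labels. The comparison of the 8 genes in cardiomyocyte-like nuclei asked how the RNA of the partners stood when dystrophin was shortened or lost. A gene was counted as past the fold when its CPM differed at least 1.5-fold between libraries, among genes with at least 50 UMIs over the 3 libraries, which all 8 had. In BMD over WT 1 of 8 was higher and 0 were lower, where 9.33% of all 10327 genes were higher and 9.28% lower. In DMD over WT 0 were higher and 1 was lower, where 15.1% of all genes were higher and 9.28% lower. In DMD over BMD 1 was higher and 0 were lower, beside 11.7% and 4.87% of all genes. The median log2 ratio of the 8 was -0.23 in BMD over WT, -0.12 in DMD over WT and 0.11 in DMD over BMD, and that of all genes was -0.050, 0.0091 and 0.053. These counts lie near the background, and several genes lay close to the 1.5-fold line.

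**Figure D2:**
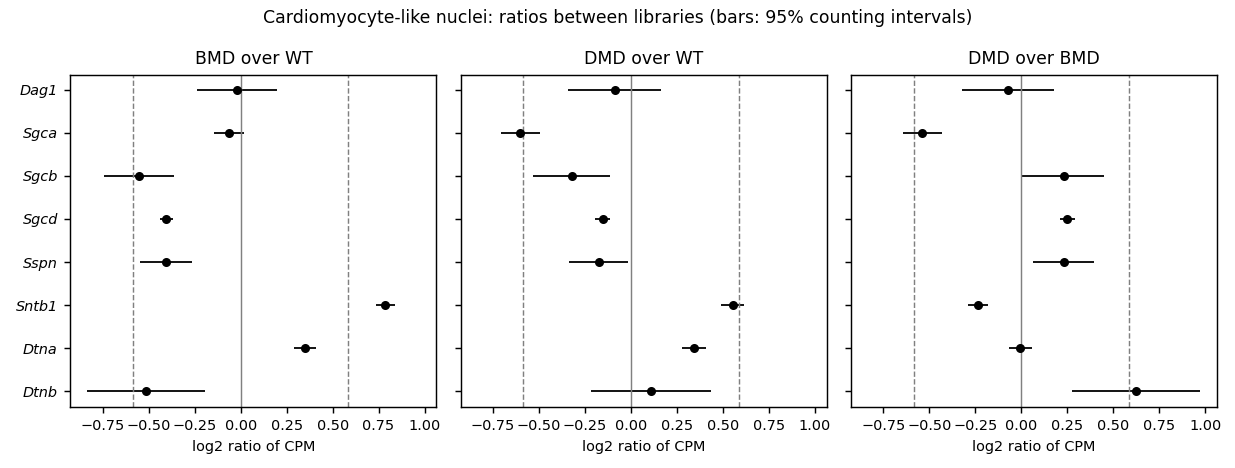
Log2 ratio of CPM in cardiomyocyte-like nuclei for each gene (y axis) in BMD over WT, DMD over WT and DMD over BMD (x axis, log2), with 95% counting intervals. Solid lines mark no difference and dashed lines 1.5-fold, which Sntb1 passes in BMD over WT (0.79), Sgca in DMD over WT (-0.60) and Dtnb in DMD over BMD (0.62).

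The member furthest from WT in BMD was Sntb1. Its log2 ratio was 0.79 (0.73 to 0.84) in BMD over WT, 0.55 (0.49 to 0.61) in DMD over WT and -0.23 (-0.29 to -0.18) in DMD over BMD, so that both mutant libraries stood above WT and BMD above DMD. With clusters drawn at Leiden resolution 1.0, where part of the cardiomyocyte-like nuclei lost the name, the BMD ratio was 0.35 and no longer past 1.5-fold, and DMD over BMD was 0.16. With those nuclei counted in, the ratios were 0.78 in BMD and 0.59 in DMD, and the DMD value then also passed 1.5-fold. Dtna, read over the whole class, was above WT in both mutant libraries by similar amounts, with 0.35 (0.29 to 0.41) in BMD and 0.34 (0.28 to 0.41) in DMD. The interval of their direct ratio, -0.0054 (-0.067 to 0.056), held 0.

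Sgca, Sgcb, Sgcd and Sspn had values below WT in both mutant libraries, that of Sgca in BMD within counting error. Over the whole class Sgca hardly differed between WT and BMD, with a log2 ratio of -0.063 (-0.14 to 0.018). It was lower in DMD, with -0.60 (-0.71 to -0.50) over WT and -0.54 (-0.64 to -0.43) over BMD. Sgcb was lower in BMD, with -0.55 (-0.74 to -0.37), and in DMD, with -0.32 (-0.53 to -0.11). Sgcd was lower in BMD, with -0.40 (-0.44 to -0.37), and less so in DMD, with -0.15 (-0.19 to -0.11). Sspn took the same order, with -0.41 (-0.55 to -0.26) and -0.18 (-0.33 to -0.018). In the direct ratio of DMD over BMD, Sgcb, Sgcd and Sspn were at 0.23 (0.0061 to 0.45), 0.25 (0.21 to 0.29) and 0.23 (0.065 to 0.40), on the other side of 0 from Sgca.

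Over the whole class Dag1 did not differ beyond counting error in any comparison, with -0.019 (-0.24 to 0.20) in BMD and -0.089 (-0.34 to 0.16) in DMD over WT. Dtnb, low in these nuclei, was at -0.51 (-0.84 to -0.20) in BMD, 0.11 (-0.22 to 0.44) in DMD and 0.62 (0.27 to 0.97) in DMD over BMD, on 194, 144 and 134 UMIs. The DMD cardiomyocyte-like nuclei held more RNA of the markers of some other cell types than the WT ones, and less of others. Myocd, on the smooth muscle list, was among the 10 top genes of the large cardiomyocyte-like cluster. Where the RNA of each list came from was not tested. The marker sums lower in DMD than in WT were those of pericytes (671 against 986 CPM) and smooth muscle (4669 against 5093 CPM). Those of lymphatic cells (221 against 259 CPM) and adipocytes (1583 against 2472 CPM) were lower too. All other sums were higher in DMD than in WT. The endocardial markers summed to 196 CPM in WT against 238 in BMD and 383 in DMD. Schwann cell markers summed to 253, 506 and 312 CPM, highest in BMD. T or B cell markers summed to 33.4, 28.8 and 53.6 CPM and mesothelial ones to 1.56, 0.74 and 3.41 CPM. The 10 fibroblast markers summed to 218 CPM in WT against 181 in BMD and 902 in DMD, the 11 endothelial markers to 123 CPM in WT against 191 in BMD and 302 in DMD, the 10 macrophage markers to 13.6 CPM in WT against 21.6 in BMD and 49.7 in DMD and the 9 monocyte or neutrophil markers to 20.7 CPM in WT against 23.5 in BMD and 232 in DMD, with 2 of these 9 at 0 in WT. Part of this lay in a small cluster led by Gadd45g and Nppb with 64, 115 and 235 nuclei. At Leiden resolution 1.0, 2 WT, 4 BMD and 166 DMD nuclei of it fell into an unnamed cluster led by S100a8 and S100a9. That unnamed cluster raised 8 of 10 fibroblast markers and 4 cardiomyocyte markers. Without the small cluster, the fibroblast sum was 205 CPM in WT against 159 in BMD and 375 in DMD, and the monocyte or neutrophil sum 20.2 CPM in WT against 20.7 in BMD and 75.1 in DMD. The Sgca ratio in DMD over WT was then -0.55 and no longer past 1.5-fold, that of Sntb1 was 0.61 and past it, and that of Dag1 was -0.30 (-0.57 to -0.022), with an interval below 0. In the small cluster alone Dag1 was at 0.92 (0.11 to 1.83) in BMD over WT, on 15 UMIs in WT and 76 in BMD, against -0.23 (-0.46 to 0.00051) in the rest. The part of the other cell types' RNA in the remaining ratios was not tested.

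The share of nuclei with a UMI was compared after each nucleus was thinned to 500 UMIs, and 0 nuclei were left out. Sgcd had a UMI in 62.1%, 50.1% and 51.9% of cardiomyocyte-like nuclei in WT, BMD and DMD, beside 3.97%, 4.04% and 3.54% of endothelial-like nuclei. Sgca had one in 16.6%, 14.8% and 11.2%, beside 0.390%, 1.26% and 0.581%. Sntb1 had one in 26.3%, 37.7% and 29.9%, beside 3.25%, 5.89% and 4.39%, and Dtna in 26.9%, 31.0% and 26.7%. The order of the libraries was that of the CPM for Sgcd, Sgca and Sntb1, although the BMD and DMD shares of Sgcd lay close together. For Dtna the share in DMD lay below that in WT while the CPM lay above it, so no order is read from its shares. Before thinning the shares were 92.7%, 89.7% and 81.5% for Sgcd, 59.6%, 62.3% and 45% for Sgca, 66.4%, 79.8% and 66.8% for Sntb1 and 73.4%, 82.8% and 69.0% for Dtna, with medians of 2741, 3666 and 2831 UMIs per cardiomyocyte-like nucleus and of 792, 1084.5 and 936.5 UMIs per endothelial-like nucleus.

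The libraries held unlike mixtures of cardiomyocyte-like nuclei. At Leiden resolution 1.0 most fell into a cluster led by Lsamp, Dhrs7c, Ky and Myh6, with 1890 WT, 611 BMD and 581 DMD nuclei, or into a cluster led by Xirp2, Hs3st2, Tgfb2 and Acta1, with 113, 881 and 457 nuclei. Xirp2 and Acta1 encode an actin-binding protein of the intercalated discs and skeletal α-actin. The Xirp2-led cluster raised 10 of 11 cardiomyocyte markers but stayed unnamed, because a gene on the Schwann cell list, Ncam1, was among its top 10 genes and no cardiomyocyte marker was. The clusters were drawn without the 8 genes, on the same nuclei, so the values within them are a description.

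Within WT, Sgca, Sgcd, Sgcb and Sspn were lower in Xirp2-led than in Lsamp-led nuclei. The log2 ratio of Xirp2-led over Lsamp-led nuclei for Sgca was -0.92 (-1.24 to -0.62) in WT, -0.28 (-0.40 to -0.16) in BMD and -0.34 (-0.52 to -0.15) in DMD. For Sgcd it was -0.64 (-0.76 to -0.53), -0.25 (-0.30 to -0.19) and -0.30 (-0.36 to -0.23). For Sspn it was -0.51 (-0.99 to -0.076), -0.22 (-0.44 to 0.011) and -0.30 (-0.56 to -0.035), and for Sgcb -0.62 (-1.26 to -0.037), -0.25 (-0.56 to 0.060) and -0.28 (-0.64 to 0.084). All 12 of these values were below 0, and the intervals of Sspn in BMD and of Sgcb in BMD and DMD reached across it. Sntb1 went the other way, with 0.25 (0.088 to 0.41), 0.62 (0.55 to 0.70) and 0.14 (0.052 to 0.23), as did Dtna in WT with 0.31 (0.15 to 0.47) and in BMD with 0.25 (0.16 to 0.33), while Dtna in DMD was at -0.0023 (-0.10 to 0.098).

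Within each cluster the libraries were set side by side. In Lsamp-led nuclei Sntb1 measured 692 CPM in WT against 910.5 in BMD and 1017 in DMD, a log2 ratio of 0.40 (0.32 to 0.47) in BMD and 0.55 (0.48 to 0.63) in DMD over WT. In Xirp2-led nuclei it measured 823 CPM in WT against 1401 in BMD and 1122 in DMD, with ratios of 0.77 (0.61 to 0.93) and 0.45 (0.28 to 0.61). Sntb1 was above WT in both mutant libraries in both of these clusters, of which only the Xirp2-led one had BMD above DMD. Sgca measured 395 CPM in WT against 419 in BMD and 292 in DMD in Lsamp-led nuclei, with 0.087 (-0.026 to 0.20) in BMD and -0.44 (-0.57 to -0.30) in DMD over WT. In Xirp2-led nuclei it measured 209 CPM in WT against 345 in BMD and 230.5 in DMD. The ratio of Sgca there was 0.73 (0.42 to 1.05) in BMD over WT, on 90 UMIs in WT. It was 0.14 (-0.19 to 0.49) in DMD over WT and -0.58 (-0.74 to -0.43) in DMD over BMD. Of these clusters, both had DMD below BMD for Sgca, and only the Lsamp-led one had DMD below WT. Only the Xirp2-led one had BMD above WT beyond counting error. For Sgcd the BMD ratio over WT was -0.26 (-0.31 to -0.21) in Lsamp-led and 0.14 (0.020 to 0.26) in Xirp2-led nuclei, and the DMD ratio 0.011 (-0.039 to 0.062) and 0.36 (0.23 to 0.48), so the lower Sgcd of the whole class in DMD was not found within either cluster. Sspn in Lsamp-led nuclei was at -0.28 (-0.48 to -0.076) in BMD and -0.023 (-0.23 to 0.18) in DMD over WT, and in Xirp2-led nuclei it measured 102, 103 and 117 CPM, with 0.018 (-0.43 to 0.50) and 0.19 (-0.28 to 0.69). Sgcb in Lsamp-led nuclei was at -0.43 (-0.71 to -0.16) and -0.22 (-0.49 to 0.055), and in Xirp2-led nuclei it measured 57.9, 55.3 and 63.1 CPM, with -0.069 (-0.67 to 0.59) and 0.12 (-0.51 to 0.81). Within these clusters Sspn and Sgcb were below WT beyond counting error only in BMD among Lsamp-led nuclei, and WT had 44 and 25 UMIs of these genes in Xirp2-led nuclei. Dag1 was below WT beyond counting error in BMD in both clusters, at -0.42 (-0.78 to -0.064) in Lsamp-led and -0.67 (-1.21 to -0.094) in Xirp2-led nuclei. In DMD over WT Dag1 was at -0.23 (-0.60 to 0.13) and -0.77 (-1.36 to -0.14), on 33 UMIs in WT Xirp2-led nuclei. Dtna in Lsamp-led nuclei was at 0.24 (0.16 to 0.32) in BMD and 0.41 (0.33 to 0.50) in DMD over WT. Its DMD over BMD ratio there was 0.17 (0.073 to 0.27). In Xirp2-led nuclei Dtna was at 0.17 (0.014 to 0.34) in BMD and 0.096 (-0.072 to 0.27) in DMD over WT. A smaller cluster at Leiden resolution 1.0, led by Gadd45g and Nppb, held 66, 117 and 77 nuclei. Sgca there was at -1.53 (-2.26 to -0.85) and Sgcd at -0.32 (-0.62 to -0.025) in DMD over WT. Sntb1 there was at 0.61 (0.25 to 0.98) in BMD and 0.26 (-0.18 to 0.70) in DMD over WT. Its direct ratio of DMD over BMD was -0.35 (-0.69 to -0.028).

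**Figure D3:**
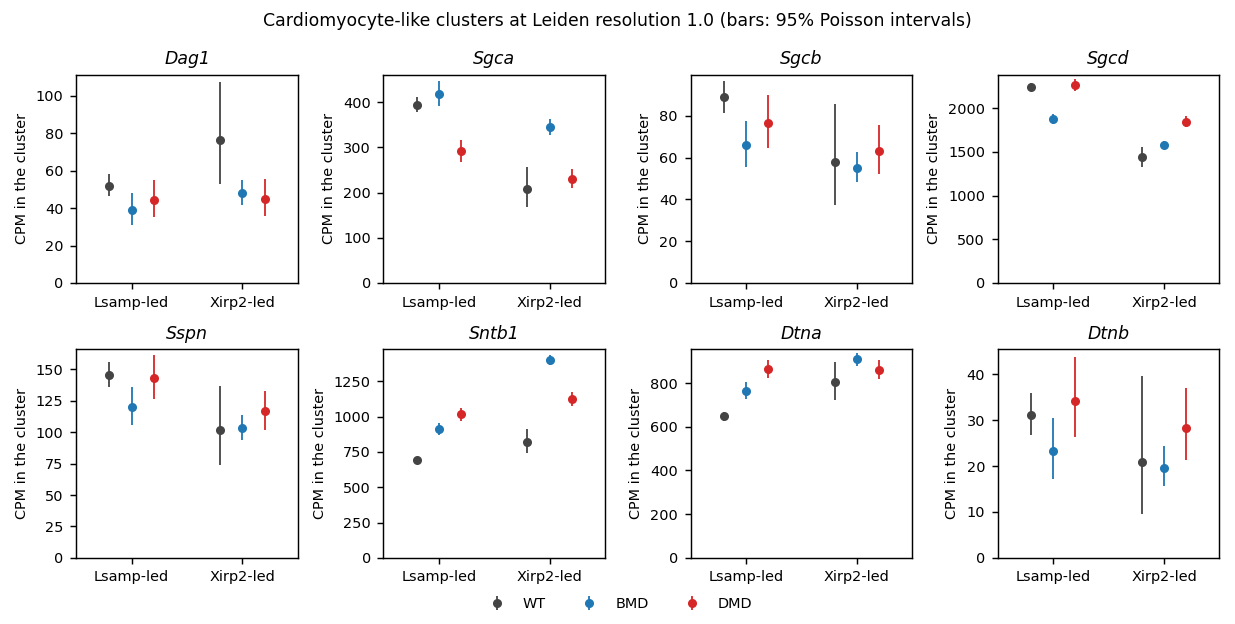
CPM of each gene (y axis, from 0) in the Lsamp-led and the Xirp2-led cardiomyocyte-like cluster (x axis) of each library (WT grey, BMD blue, DMD red), with 95% Poisson intervals. Sntb1 in WT is the lowest of the 3 libraries in both clusters, and Sgca and Sgcd in WT are lower in the Xirp2-led than in the Lsamp-led cluster (113 and 1890 nuclei).

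In fibroblast-like nuclei Dag1 and Dtnb, the members best found there, were lower in both mutant libraries. The log2 ratio of Dag1 over WT was -1.11 (-1.31 to -0.91) in BMD and -0.33 (-0.48 to -0.17) in DMD. That of Dtnb was -0.90 (-1.06 to -0.74) in BMD and -0.56 (-0.70 to -0.42) in DMD. All 8 genes had at least 50 UMIs, of which 2 were past 1.5-fold higher and 2 lower in BMD, where 6.70% of the 10680 genes were higher and 11.7% lower. In DMD 2 were higher and 0 lower, where 6.40% and 6.10% of genes were. The genes past the fold upward were Sntb1, with 1.15 (0.80 to 1.5) and 0.72 (0.36 to 1.08), and Dtna, with 1.38 (0.90 to 1.88) and 1.02 (0.53 to 1.52). Both had their lowest class value in these nuclei in all 3 libraries. Sntb1 measured 25.6, 56.8 and 42.2 CPM where free RNA would give 18.0, 37.1 and 20.3 CPM. Its interval lay above that level in each library. Dtna measured 12.4, 32.4 and 25.1 CPM where free RNA would give 13.8, 23.9 and 15.5 CPM. Its interval lay above that level in BMD and DMD but not in WT.

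The fibroblast-like nuclei formed a large cluster led by Abca8a, with 3265, 1155 and 1871 nuclei, and a cluster led by Tnc, an extracellular matrix gene of injured tissue, with 253, 484 and 400 nuclei. In the Abca8a-led cluster Dag1 measured 201 CPM in WT against 103 in BMD and 174 in DMD, a log2 ratio of -0.96 (-1.19 to -0.74) in BMD and -0.20 (-0.37 to -0.042) in DMD. In the Tnc-led cluster it measured 175 CPM in WT against 70.5 in BMD and 99.5 in DMD, with -1.31 (-1.79 to -0.83) and -0.81 (-1.29 to -0.34). Dag1 was lower in both mutant libraries within either cluster. Dtnb measured 287 CPM in WT against 154 in BMD and 191 in DMD in the Abca8a-led cluster, with -0.90 (-1.09 to -0.72) and -0.59 (-0.74 to -0.44), and 128 CPM in WT against 131 in BMD and 160.0 in DMD in the Tnc-led one, with 0.035 (-0.42 to 0.50) and 0.32 (-0.14 to 0.80), both of which held 0.

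Sntb1 had ratios on both sides of 0 in different classes. In T or B cell-like nuclei it was at 0.14 (-0.059 to 0.34) in BMD over WT, and in DMD at -0.94 (-1.16 to -0.73) over WT and -1.08 (-1.32 to -0.85) over BMD. The libraries held unlike mixtures of these nuclei. At Leiden resolution 1.0 a cluster led by Clnk, Klri1 and Prf1 held 236 WT, 65 BMD and 161 DMD nuclei. Another, led by Themis and Lef1, held 180, 185 and 165. Sntb1 was not measured within each of them. In endocardial-like nuclei it was at -0.78 (-1.49 to -0.077) in BMD and -0.995 (-1.63 to -0.36) in DMD, on 45, 30 and 43 UMIs. In endothelial-like nuclei it was at 0.65 (0.32 to 0.995) in BMD and 0.23 (-0.12 to 0.58) in DMD, and in pericyte-like nuclei at 0.099 (-0.24 to 0.44) and -0.41 (-0.79 to -0.033). In the 23, 32 and 87 monocyte or neutrophil-like nuclei it measured 660.4, 1472 and 286 CPM on 35, 60 and 33 UMIs, with 1.16 (0.53 to 1.80) in BMD and -1.21 (-1.94 to -0.48) in DMD over WT, so BMD stood above WT and DMD below it. Sgcd in the same nuclei was at -1.92 (-3.00 to -0.96) in BMD and -1.39 (-1.99 to -0.79) in DMD over WT, and in smooth muscle-like nuclei at 1.49 (0.26 to 3.01) and 0.058 (-1.37 to 1.70), on 6, 46 and 16 UMIs. Free RNA was estimated at 64.9%, 44.8% and 63.0% of the UMIs of monocyte or neutrophil-like nuclei, at 34.8%, 32.9% and 37.8% of those of T or B cell-like nuclei and at 2.67%, 4.25% and 8.01% of those of cardiomyocyte-like nuclei in WT, BMD and DMD. These estimates rest on markers of other lineages, so RNA of doublets can count into them. Scrublet called 43.5%, 6.25% and 33.3% of the monocyte or neutrophil-like nuclei doublets in WT, BMD and DMD. The part of free RNA and of doublets in these differences was not tested. Dtnb in endocardial-like nuclei was at 0.18 (-0.19 to 0.56) and 0.030 (-0.31 to 0.38), with both intervals across 0, and Dag1 in endothelial-like nuclei was at -0.19 (-0.58 to 0.20) in BMD and 0.40 (0.053 to 0.76) in DMD.

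**Figure D4:**
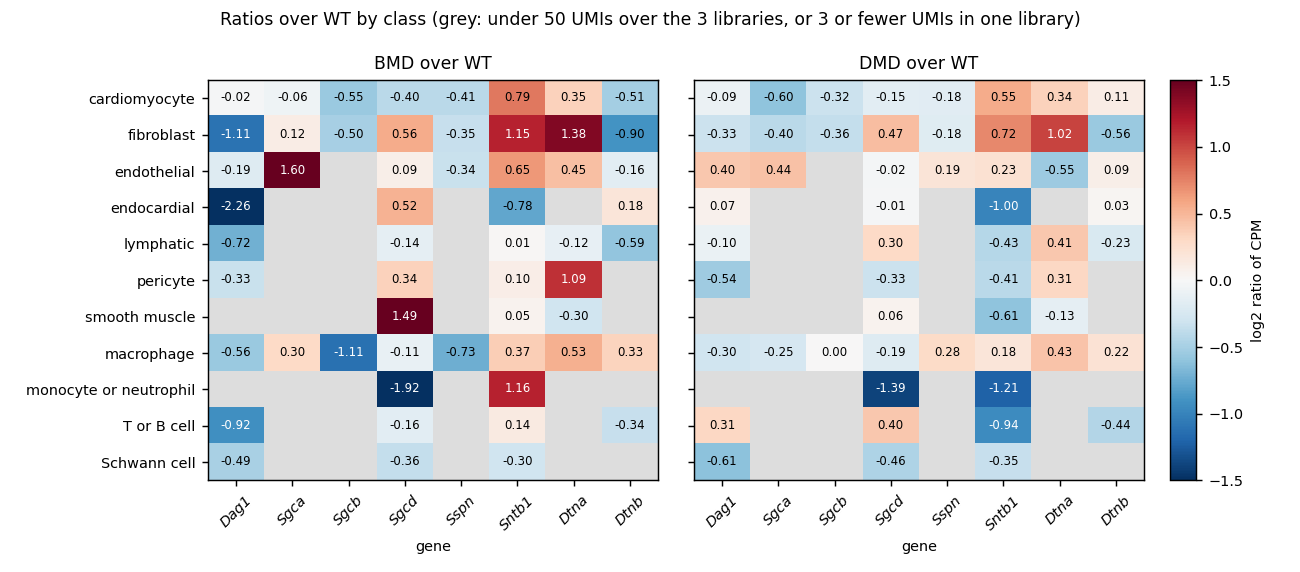
Log2 ratio of CPM over WT for each gene (x axis) in each class (y axis), in BMD on the left and DMD on the right, as colour and printed value, with cells in grey where a gene had under 50 UMIs over the 3 libraries or 3 or fewer in a library. Sntb1 is above 0 in cardiomyocyte-like nuclei (0.79 and 0.55) and below 0 in endocardial-like nuclei (-0.78 and -0.995), and colours are cut at 1.5 while the printed values are not.

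The other genes of the complex were read in cardiomyocyte-like nuclei from lists grouped by role. Of 10 other subunits in the files, 7 had at least 50 UMIs, and 1 was past 1.5-fold higher and 1 lower in each of BMD and DMD over WT. Beside these, 9.33% of all genes were higher and 9.28% lower in BMD, and 15.1% and 9.28% in DMD. The median log2 ratios of the 7 were -0.15 in BMD and 0.0018 in DMD. Sntb2, β2-syntrophin, measured 18.2 CPM in WT against 29.9 in BMD and 39.5 in DMD and was higher in both, with 0.71 (0.38 to 1.05) and 1.11 (0.76 to 1.47). Sgce, ε-sarcoglycan, measured 36.0 CPM in WT against 16.8 in BMD and 36.1 in DMD, with -1.10 (-1.44 to -0.77) in BMD and 0.0018 (-0.31 to 0.31) in DMD. Nos1, the neuronal nitric oxide synthase held by syntrophin, was at -0.23 (-0.76 to 0.31) in BMD and -0.66 (-1.37 to 0.023) in DMD. Utrn, utrophin, the nearest relative of dystrophin, was at -0.32 (-0.37 to -0.27) and -0.14 (-0.20 to -0.086), so it was not above WT in either library.

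Of the 8 dystroglycan ligands, all with at least 50 UMIs, 2 were past 1.5-fold higher in BMD and 5 in DMD over WT, beside 9.33% and 15.1% of all genes, and 0 were lower, with medians of 0.20 and 0.83. Lamc1, the laminin γ1 chain, measured 1373 CPM in WT against 2733 in BMD and 2697 in DMD, with 0.99 (0.96 to 1.03) and 0.97 (0.93 to 1.01). Slit2 was at 0.60 (-0.19 to 1.42) and 1.29 (0.50 to 2.11). At the low end, Agrn, agrin, was at -0.28 (-0.74 to 0.18) and -0.0080 (-0.52 to 0.49). Laminins are also made by fibroblasts, whose markers summed to 218 CPM in WT, 181 in BMD and 902 in DMD cardiomyocyte-like nuclei. The part of fibroblast RNA in the ligand ratios was not tested. Lamc1 was at 1.02 in BMD and 1.01 in DMD over WT without the small cluster. Without the small cluster the ligands past the fold numbered 1 in BMD and 5 in DMD, beside 8.68% and 11.9% of all genes, with medians of 0.24 and 0.80.

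For the lists that follow, the shares of all genes were 9.33% higher and 9.28% lower in BMD, and 15.1% and 9.28% in DMD. Of 17 genes listed for dystroglycan glycosylation, 14 had at least 50 UMIs. Of these, 1 was higher and 1 lower in BMD and 3 were higher and 0 lower in DMD, with medians of -0.19 and -0.016. Dpm3, of dolichol phosphate mannose synthesis, was at 0.98 (0.22 to 1.78) in BMD and 1.31 (0.50 to 2.15) in DMD. Of 14 membrane and cytoskeletal partners 12 had at least 50 UMIs, of which 1 was higher and 1 lower in BMD and 2 were higher and 1 lower in DMD. Synm, synemin, an intermediate filament protein that binds dystrobrevin, measured 8.42 CPM in WT against 32.2 in BMD and 34.4 in DMD, with 1.94 (1.5 to 2.39) and 2.03 (1.57 to 2.51), the furthest of the 41 listed genes from WT in BMD. Kcnj2, a potassium channel, was at -0.19 (-0.86 to 0.47) and -0.75 (-1.68 to 0.11). Mmp2, a protease that cleaves dystroglycan and a marker of fibroblasts, was at -1.14 (-1.89 to -0.43) and 1.66 (1.17 to 2.17), and at 0.32 in DMD without the small cluster. Over all 4 lists 5 of 41 genes were higher and 3 lower in BMD, and 11 were higher and 2 lower in DMD, beside the shares of all genes given above.

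**Figure D5:**
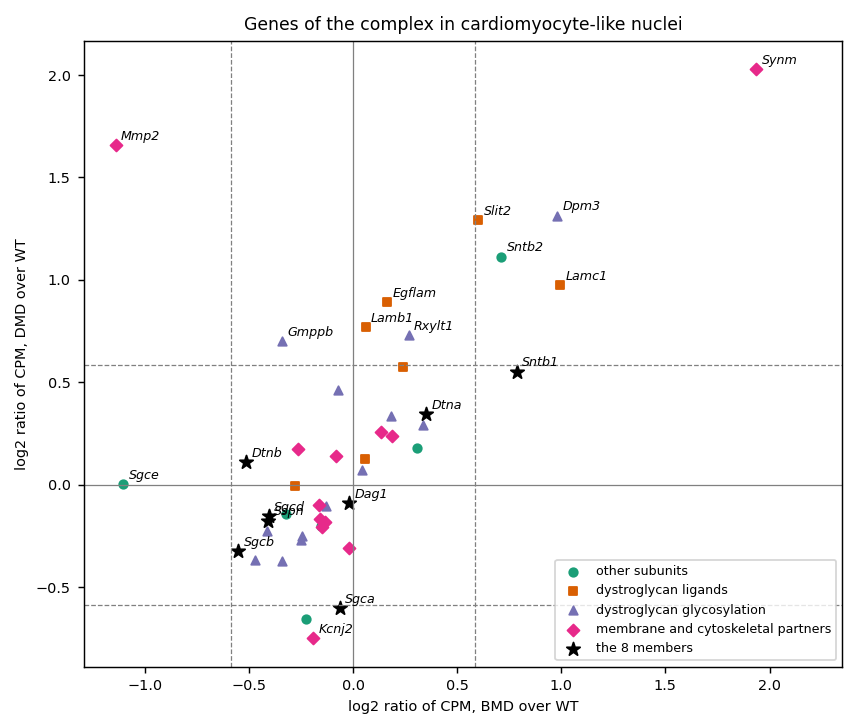
Log2 ratio of CPM in cardiomyocyte-like nuclei, BMD over WT (x axis) against DMD over WT (y axis), for the 8 genes (stars) and 38 of the 41 listed genes with at least 50 UMIs (other symbols by role), with dashed lines at 1.5-fold. Both ratios share the WT library, so a common direction is partly built in. Synm (1.94 and 2.03) lies far from the 8 genes, and the ligands (squares) reach further up in DMD than in BMD.

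The genes whose levels over the 33 class and library points were most like each member were named as a description, among 11168 genes with at least 200 UMIs. For Dtna these were Dmd (Pearson correlation 0.97), Cacnb2 (0.95) and Tpm1 (0.95), and for Sgca the highest was Pln (0.90), the regulator of the calcium pump of the sarcoplasmic reticulum. For Sgcd they were Nav2 (0.85) and Mlip (0.84), for Sspn Arhgap35 (0.84), for Sgcb Fam227b (0.83) and for Sntb1 Pip5k1b (0.87). For Dtnb the highest was Dapk1 (0.85), and for Dag1 the highest with a gene name was Rarres2 (0.81). The points share libraries, depth and free RNA, and each class adds 3 of them.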

How the data were processed

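Nuclei were sorted from heart apex and processed, per the labels, with the 10x Genomics 3′ v3.1 kit, although the study's results name a 5′ kit. The authors aligned and counted reads with Cell Ranger, and the submitters' processing notes name rn6. The deposited tables give raw UMI counts of each gene in each barcode, empty droplets included, and counting of introns is not given in the sources used here. WT counts are the barcodes with suffix 3 of an aggregate of all 3 libraries, whose other suffixes matched the BMD and DMD tables exactly. Inside that aggregate BMD was thinned to 76.1% and DMD to 92.9%, so their own tables were used. The cell barcodes shared by libraries numbered 20 for WT and BMD, 12 for WT and DMD and 12 for BMD and DMD.

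As many barcodes as the study counts nuclei in each library were kept, in order of UMIs, and no doublets were removed (Scrublet called 8.22%, 4.80% and 10.8%). Counts per 10000 on a log scale were reduced to 2000 variable genes and 30 components, and clustered with 15 neighbours at Leiden resolution 0.5 (scanpy 1.11.5, leidenalg 0.10.2). The 8 genes, the listed genes and 7 genes named in the paper were left out of the clustering. A cluster was named from at least 3 markers raised 2 times, and stayed unnamed when another list led its 10 top genes or when it mixed 2 lineages, the last of these set with the data in view. Pericyte and smooth muscle nuclei were separated at resolution 0.3. Level intervals are exact Poisson, ratio intervals come from the exact binomial split of both counts and share intervals are exact Clopper-Pearson (scipy 1.17.1). Ratios were formed where both libraries had over 3 UMIs. The ratio step was tested on simulated data.

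The members, lists and rules were chosen with earlier results of these data known. The listed genes named are the highest and lowest of each list and those past 1.5-fold in both comparisons, plus subunits set beside a member. For likeness, log2(CPM + 5) was used, with the 3 most alike genes per member. Alternatives were UMI minimums of 500 and 1000, Scrublet doublets out, nuclei over 5% mitochondrial UMIs out, Leiden 1.0, listed genes kept in the clustering, TMM (edgeR 4.0.16) or DESeq2 1.42.0 factors, mean over nuclei, all nuclei, free RNA subtracted, thinned aggregate counts, a fold of 5 to 4, and 4 or 200 UMIs per gene. Sgcz, Hspg2 and Mast1 were not analysed here, and 3 listed genes that count in the lists are not reported singly.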

Additional observations from a re-analysis of the deposited data

Results flagged for a closer look

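Sntb1 and Sgcd were past 1.5-fold on opposite sides of 0 in different classes under the same contrast, which is why they are listed here. In BMD over WT the log2 ratio of Sntb1 was 0.79 in cardiomyocyte-like, 0.65 in endothelial-like, 1.15 in fibroblast-like and 1.16 in monocyte or neutrophil-like nuclei, and -0.78 in endocardial-like nuclei. In DMD over WT it was 0.72 in fibroblast-like nuclei, and -0.94 in T or B cell-like, -0.995 in endocardial-like and -1.21 in monocyte or neutrophil-like nuclei. Sgcd in BMD over WT was at 1.49 in smooth muscle-like nuclei and -1.92 in monocyte or neutrophil-like nuclei, on 6 UMIs in WT in the former and 11 in BMD in the latter. Scrublet called 43.5% of the monocyte or neutrophil-like nuclei doublets in WT and 6.25% in BMD. These differences between classes were not tested, since each rests on 1 library per genotype. Sntb1 in fibroblast-like nuclei was 1.42, 1.53 and 2.08 times the free RNA level (25.6, 56.8 and 42.2 CPM against 18.0, 37.1 and 20.3 CPM in WT, BMD and DMD). In endocardial-like nuclei it rested on 45, 30 and 43 UMIs.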

How the results depend on the processing

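Each ratio was recomputed under 14 alternatives, of which the removal of the small cardiomyocyte cluster and the counting in of the unnamed Xirp2-led cluster were chosen after seeing the data. The number of members past 1.5-fold in cardiomyocyte-like nuclei is small and moved with most choices. In BMD over WT (1 gene) it was 2 with at least 500 UMIs per barcode, with doublets left out and with members left in the clustering, 0 at Leiden 1.0, 3 with the mean over nuclei and with all nuclei, and 6 at a fold of 5 to 4. In DMD over WT (1 gene) it was 0 with doublets left out and at Leiden 1.0, and 4 at a fold of 5 to 4. In DMD over BMD (1 gene) it was 0 with at least 1000 UMIs, with free RNA subtracted and with the thinned aggregate counts, and 2 with the mean over nuclei, with all nuclei and at a fold of 5 to 4. The share of all genes past the fold in BMD over WT (18.6%) was 10.7% over all nuclei, 41.1% at a fold of 5 to 4 and 31.6% with at least 4 UMIs per gene. In DMD over WT (24.4%) it was 10.2%, 46.3% and 39.3%. In DMD over BMD (16.6%) it was 25.3% with the mean over nuclei, 35.6% at a fold of 5 to 4, 32.5% with at least 4 and 9.31% with at least 200 UMIs per gene. The members highest in cardiomyocyte-like nuclei in all 3 libraries numbered 5, and 3 with free RNA subtracted. In DMD over BMD 2 ratios whose interval excluded 0 changed sign, Sntb1 to 0.16 at Leiden 1.0 and Sgcd to -0.22 over all nuclei, where the classes are mixed. Ratios whose interval held 0 also crossed it, with ranges for Dag1 of -0.74 to 0.20 in BMD over WT, -0.30 to 0.22 in DMD over WT and -0.34 to 0.56 in DMD over BMD, for Sgca of -0.11 to 0.11 in BMD over WT, for Dtnb of -0.28 to 0.21 in DMD over WT and for Dtna of -0.48 to 0.23 in DMD over BMD. The log2 ratio of Sgca in DMD over WT ranged from -0.87 to -0.51, that of Sgcb in BMD over WT from -0.71 to -0.41, and that of Sntb1 from 0.35 to 0.82 in BMD and 0.16 to 0.62 in DMD over WT, none of which changed sign. In DMD over WT the ratio of Sgcd ranged from -0.40 to -0.047 and that of Dtna from 0.061 to 0.41. They fell outside their counting intervals in 10 and 5 of the 14 alternatives. TMM and DESeq2 factors shifted the median of all genes in DMD over BMD by -0.10 and -0.11. Except where the setting itself changes which nuclei or genes are counted, the cause was not tested. No paired analysis was possible because each genotype had 1 library.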
